A study of Mus musculus with 42 samples.

Results

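The nuclear factor kappa B (NF-kB) system is described here through 10 of 21897 mouse protein-coding genes, chosen by their symbols: the subunits Nfkb1, Nfkb2, Rel, Rela and Relb, the inhibitors Nfkbia, Nfkbib and Nfkbie, the nuclear cofactor Nfkbiz and the feedback enzyme gene Tnfaip3. Occupancy of RNA polymerase II (Pol II) and the histone mark H3K27ac, an acetylated lysine of histone H3 found at promoters and enhancers in use, were profiled by ChIP-seq in bone marrow-derived macrophages (BMDMs). Cells came from male C57Bl6/J mice aged 6 to 12 weeks that were wild type (WT) or lacked the nuclear receptor Nur77, which Nr4a1 encodes (KO). Bone marrow of both genotypes was grown into macrophages in L929-conditioned medium and left untreated (0 h) or stimulated with 100 ng/ml lipopolysaccharide (LPS), a bacterial cell wall component, for 1 or 18 h. Each of the 6 groups had 3 libraries per antibody and 1 input library without immunoprecipitation, 42 in all. The deletion was made in the whole body with Cre under the CMV promoter and a floxed Nr4a1 locus. The study's methods describe KO mice that no longer carried Cre and WT littermates, whereas the genotype label of the KO libraries reads only cre, so Cre and the loss of Nur77 cannot be told apart here. The study's methods call the replicates biological, but no label says that the libraries of a group came from separate animals or cultures, so the p-values measure the spread between these libraries.

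NF-kB proteins are transcription factors that bind DNA as dimers. Rela, Rel and Relb carry activation domains, and Nfkb1 and Nfkb2 are made as long precursors that are processed to shorter DNA-binding forms. In resting macrophages IkB proteins, encoded by Nfkbia, Nfkbib and Nfkbie, hold the dimers in the cytoplasm. LPS acts through a Toll-like receptor and kinases that mark IkB for destruction, and the freed dimers then switch on inflammatory genes together with genes of their own inhibitors. Nfkbiz encodes a nuclear IkB protein that helps NF-kB at a secondary set of genes, and Tnfaip3 encodes A20, a ubiquitin-editing enzyme that limits the signal upstream of the kinases.

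In the GRCm38 assembly (mm10), Nfkb1 (ENSMUSG00000028163) spans chr3:135584655-135691547 on the minus strand and is the longest member with 106893 bp. Nfkbia (ENSMUSG00000021025, chr12:55489410-55492647, minus) is the shortest with 3238 bp. The other subunit genes lie at chr19:46304320-46312385 (Nfkb2, ENSMUSG00000025225, plus), chr11:23736847-23770970 (Rel, ENSMUSG00000020275, minus), chr19:5637483-5648130 (Rela, ENSMUSG00000024927, plus) and chr7:19606217-19629438 (Relb, ENSMUSG00000002983, minus). The remaining genes lie at chr7:28758251-28767512 (Nfkbib, ENSMUSG00000030595, minus), chr17:45555703-45563169 (Nfkbie, ENSMUSG00000023947, plus), chr16:55811375-55838899 (Nfkbiz, ENSMUSG00000035356, minus) and chr10:19000910-19015657 (Tnfaip3, ENSMUSG00000019850, minus). The windows of Nfkb1, Nfkb2 and Nfkbib overlap annotated neighbours (Gm43430, Psd with AC114539.1, and Sirt2 with Ccer2), whose Pol II cannot be separated from theirs.

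Promoters are shown for a pair of members with a kB-like match, Rel and Nfkbia, and a pair without one, Rela and Nfkbie. Nfkbib, which gained more Pol II than Rel after LPS, also had none. The sequences come from the RefSeq promoter table of GRCm38.p6, read 5′ to 3′ on the gene's strand and ending just before the gene start, and capitals mark matches on either strand to the kB-like motif, GGGNN followed at once by TTNCC (N is any base).
Rel, chr11:23770971-23771219, minus strand: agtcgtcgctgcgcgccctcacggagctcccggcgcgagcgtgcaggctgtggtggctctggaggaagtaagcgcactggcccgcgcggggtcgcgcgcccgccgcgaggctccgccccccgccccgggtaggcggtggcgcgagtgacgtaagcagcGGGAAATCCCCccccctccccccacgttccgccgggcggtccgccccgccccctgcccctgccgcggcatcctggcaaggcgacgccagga
Rela, chr19:5637291-5637482, plus strand: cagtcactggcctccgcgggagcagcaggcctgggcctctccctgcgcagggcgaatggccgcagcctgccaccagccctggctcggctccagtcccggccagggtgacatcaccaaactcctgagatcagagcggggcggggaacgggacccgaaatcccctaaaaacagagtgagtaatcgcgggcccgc
Nfkbia, chr12:55492648-55492897, minus strand: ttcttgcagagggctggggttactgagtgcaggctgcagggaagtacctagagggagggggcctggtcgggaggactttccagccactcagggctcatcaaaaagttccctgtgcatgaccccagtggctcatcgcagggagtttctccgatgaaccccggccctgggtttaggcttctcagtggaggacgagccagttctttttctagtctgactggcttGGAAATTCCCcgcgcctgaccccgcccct
Nfkbie, chr17:45555450-45555699, plus strand: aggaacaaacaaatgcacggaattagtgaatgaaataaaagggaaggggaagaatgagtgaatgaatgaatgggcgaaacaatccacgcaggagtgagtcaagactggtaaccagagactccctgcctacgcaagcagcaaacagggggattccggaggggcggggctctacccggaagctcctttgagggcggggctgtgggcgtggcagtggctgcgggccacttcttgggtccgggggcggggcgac
The Rel promoter held 2 overlapping matches, which begin 92 and 91 bases before the start, and the Nfkbia promoter held 1 match that begins 29 bases before it. For Nfkb2 and Tnfaip3, all matches are shown with 10 bases on each side, and the longer Nfkb2 run holds 2 that overlap.
Nfkb2, chr19:46304688-46304717, plus strand: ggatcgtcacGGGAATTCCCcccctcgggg
Nfkb2, chr19:46304716-46304746, plus strand: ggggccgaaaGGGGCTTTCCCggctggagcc
Nfkb2, chr19:46305695-46305724, plus strand: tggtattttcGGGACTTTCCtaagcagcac
Tnfaip3, chr10:19015403-19015432, minus strand: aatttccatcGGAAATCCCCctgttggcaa
In promoters of 300 bases (250 before to 50 after the start), the kB-like motif was found for 4 of the 7 members with a promoter (Nfkb2, Rel, Nfkbia and Tnfaip3) and for 5.48% of all genes in the table. Counted by promoter, these were 6 of 10, of which 3 belong to Nfkb2 and 2 of those share a match, against 4.79% of all 32851 promoters. The motif of AP-1 factors, TGANTCA, whose matches overlapped no kB-like match in these promoters, was found for 3 of the 7 members (Nfkb2, Nfkbie and Tnfaip3) and for 8.97% of all genes. The motif that Nur77 binds as a monomer, AAAGGTCA, was found for 0 of the 7 members and for 1.7% of all genes. A match gives letters in the sequence and not a bound site, and its absence says only that these letters are not in the window. Nfkb1, Relb and Nfkbiz were not matched to a promoter.

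The values are normalized tags, meaning tags per 10 M tags (M, mega) of a library inside the enriched regions that the authors called. They were summed from 500 bp before a gene to 500 bp past its end for Pol II, and within 2500 bp of its start for H3K27ac. Depth was 21.7 to 36.1 M tags for Pol II. For H3K27ac it was 23.6 to 55.4 M in KO and 13.5 to 31.1 M in WT, so KO was sequenced more deeply for that mark. The least that a 500 bp window needed to be called was 5.11 to 6.03 normalized tags for Pol II, 4.88 to 6.37 for H3K27ac in KO and 5.46 to 8.14 for H3K27ac in WT. Pol II over Nr4a1 was 195 ± 11.3 normalized tags in WT and 78.0 ± 8.96 in KO at 0 h (SD, n = 3), but 26.3 ± 3.74 and 36.4 ± 2.76 at 1 h, so Pol II was lower in KO at 0 h and not at 1 h. At 18 h it was 4.48 ± 3.95 in WT and listed at 0 in KO. H3K27ac at the Nr4a1 start, from other libraries, did not separate the genotypes at 0 h (76.1 ± 8.61 in WT and 73.5 ± 11.5 in KO), so this gene checks the labels only for Pol II at 0 h. All 8 macrophage markers had Pol II regions in every library, with summed levels of 21859 to 45290.0 normalized tags, while dendritic cell markers summed to 258 to 1374, those of B cells, T cells, neutrophils and fibroblasts to at most 161, and NK cell markers to 0. The KO libraries numbered 1 at 1 h and at 18 h stood apart for H3K27ac: in each group this library lay farthest from the mean of the others at 7 of the 10 genes, and H3K27ac calls in KO that change when both are left out are given both ways. For Pol II, the WT library numbered 1 at 0 h was the lowest of 3 at 9 of the 10 genes and had 61.6% of its tags in regions, against 71.5% and 71.1% in the others, and the KO library numbered 1 at 1 h was the highest of 3 at 9 of the 10. Without the libraries numbered 1 in every group, 9 of the 10 genes were still called higher at 1 h in WT, Rela being the exception. Input signal over the member windows came to at most 37.2% of the Pol II mean at 0 h in KO, 24.0% at 0 h in WT, 27.3% at 18 h in WT and 8.12% or less in the other groups. For H3K27ac it came to at most 29.6% at 18 h in WT (Nfkbiz), 20.9% at 0 h in KO, 4.92% at 18 h in KO and 11.5% or less in the other groups. In such bulk samples, fewer cells carrying a signal and less signal per cell cannot be told apart.

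The first question was how Pol II over these genes moved in the first hour of LPS. All 10 genes were called higher at 1 h in WT and all 10 in KO, at an adjusted p under 0.05 in limma, and 9 of them rose steeply, by 1.65 to 4.48 on the log2 scale in WT. Of all protein-coding genes tested, 18.6% were called higher in WT and 20.6% in KO, while 68.4% and 62.2% were called lower. These shares depend on the scaling: with each library centred on its median gene, 37.2% were higher and 38.2% lower in WT and 36.3% and 38.3% in KO, and all 10 members were still called higher in each genotype. The median change of the members was 2.67 on the log2 scale in WT and 2.82 in KO, against -0.82 and -0.62 over all genes. The lowest of the changes was that of Rela, the subunit that makes up much of the inducible NF-kB activity in macrophages.

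Nfkbiz had the steepest rise of the members. Its libraries held 549, 660 and 628 normalized tags at 0 h in WT and 13667, 13650 and 14314 at 1 h. In KO they held 558, 568 and 613 at 0 h and 13594, 12439.7 and 12835 at 1 h. All libraries at 1 h lay far above all those at 0 h, and the rise was 22.7-fold in WT (log2 4.48 ± 0.06 SE, adjusted p = 3.37e-19) and 22.4-fold in KO (4.46, adjusted p = 3.82e-19). Nfkbiz ranked 104 of 13240 genes by its change in WT.

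Nfkbia, the classical feedback inhibitor, went from 725, 848 and 810.4 normalized tags to 9736, 10294 and 9841 in WT. In KO it went from 708, 681 and 632 to 8851, 8263 and 8147. The groups did not overlap, and the rise was 12.5-fold in each genotype (log2 3.63, adjusted p = 3.96e-18 in WT and 5.06e-18 in KO). Tnfaip3 rose from 1847, 2279 and 2188 to 20451, 20302 and 20173 in WT, the highest totals of any member, and from 2540.4, 2466 and 2546 to 19239, 17063 and 17142 in KO. These are rises of 9.65-fold (adjusted p = 1.08e-17) and 7.08-fold (adjusted p = 8.12e-17), and the KO libraries lay above WT at 0 h and below WT at 1 h with no overlap at either time.

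Of the subunits, Nfkb1, the precursor gene of the shorter subunit of the classical dimer, went from 1168, 1508 and 1542 normalized tags to 13912, 13614 and 13575 in WT (9.74-fold, adjusted p = 7.01e-16). In KO it went from 1383, 1318 and 1662 to 14057, 13744 and 13753 (9.52-fold, adjusted p = 9.15e-16). At 1 h a single region covered the whole 107892 bp window in every library, whereas 16 to 25 regions covered 81.0% of it at 0 h in WT. Nfkb2, the precursor gene of the alternative pathway, rose 6.19-fold in WT and 7.37-fold in KO, and Rel, which encodes c-Rel, rose 5.69-fold and 5.07-fold. Relb, the partner of processed Nfkb2, rose 4.42-fold in WT and 5.22-fold in KO. For these 3 genes the 1 h libraries lay above all 0 h libraries in both genotypes.

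Rela behaved differently in size. Its WT libraries held 603, 605 and 722 normalized tags at 0 h and 789, 722 and 759 at 1 h. Its KO libraries went from 776, 598 and 743 to 853, 828 and 799. The WT groups met at 722 and the KO groups did not overlap. The changes were 1.18-fold in WT (log2 0.24 ± 0.10 SE, adjusted p = 0.0382) and 1.17-fold in KO (adjusted p = 0.0409), and with the whole merged Pol II region of 29845 bp, which also covers Sipa1 and Pcnx3, the change was -0.26 and -0.33 instead. With each library centred on its median gene it was 1.03 and 0.81, and without the libraries numbered 1 or those numbered 2 Rela was not called in either genotype. Both small IkB genes rose further: Nfkbib from 52.5 to 76.3 normalized tags at 0 h to 476 to 493 at 1 h in WT (7.46-fold) and Nfkbie from 729.6 to 813 to 2408 to 2499 (log2 1.65, adjusted p = 1.15e-11). In KO these changes were 7.79-fold and 3.34-fold. All members but Rela in WT, and all 10 in KO, had every 1 h library above every 0 h library. Over all genes tested, the 1 h libraries lay wholly above those of 0 h at 18.3% of genes in WT and 21% in KO, and wholly below at 66.3% and 62.4%.

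**Figure D1:**
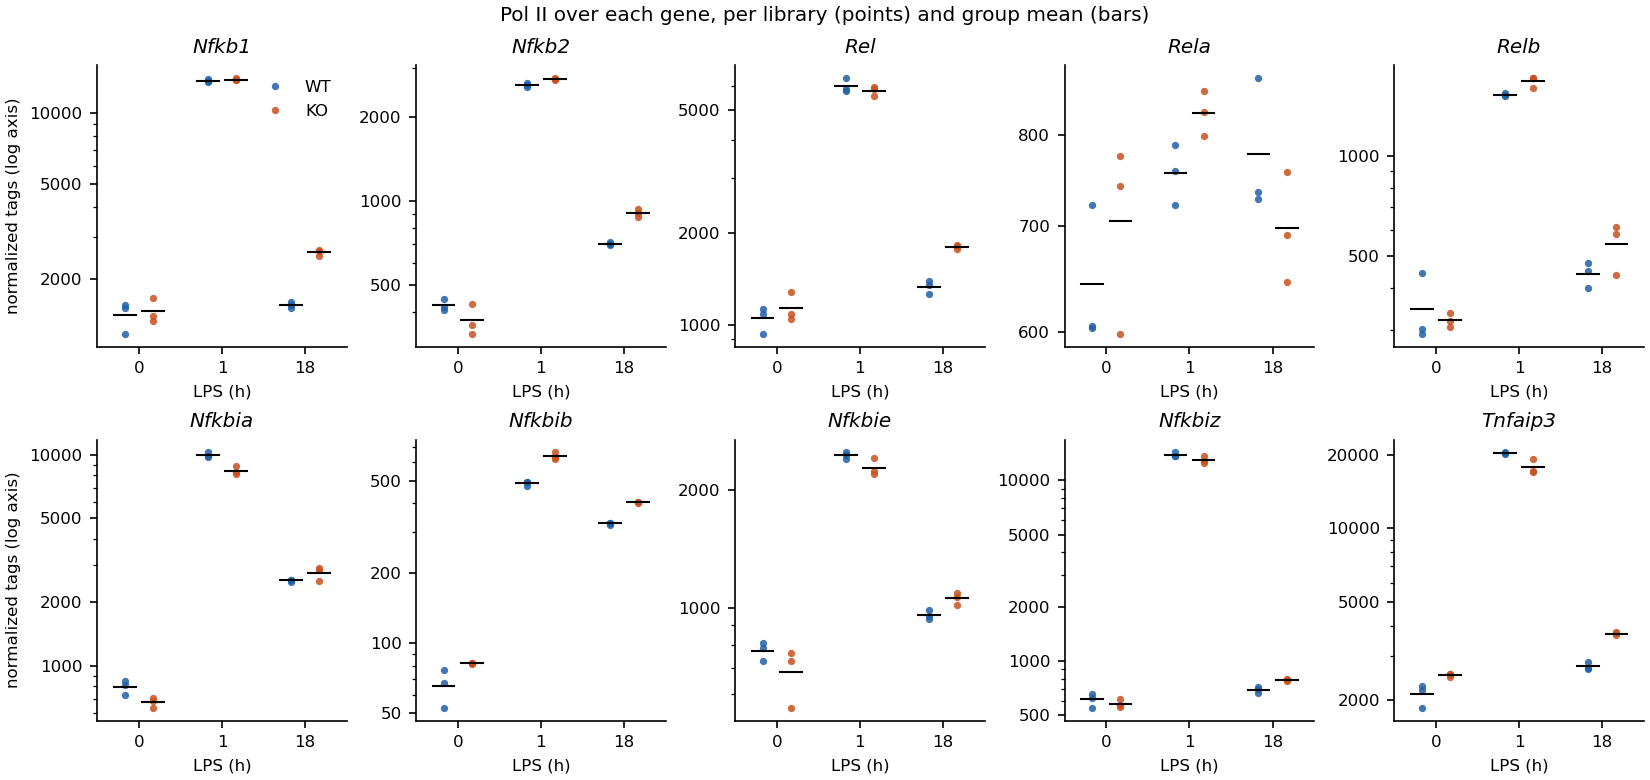
Pol II over each gene window in normalized tags (log axis), with 1 panel per gene, points for the 3 libraries of a group, bars for group means, and 0, 1 and 18 h of LPS along the horizontal axis for WT and KO. Every gene except Rela has its 1 h points far above 0 h, and at 18 h the KO points of Nfkb1 (2493 to 2636) lie above the WT points (1501 to 1595).

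Levels were compared between genes only as normalized tags per kb of window. At 0 h in WT the order ran from Nfkbia (187 tags per kb) and Tnfaip3 (134) through Nfkbie (91.7), Rela (55.2), Nfkb2 (46.7), Rel (30.0) and Nfkbiz (21.5) to Relb (14.3), Nfkb1 (13.03) and Nfkbib (6.36). Of neighbours in that order, Relb and Nfkb1 overlapped in their libraries. At 1 h in WT Nfkbia (2350.0) and Tnfaip3 (1290) still led, Nfkbiz (487) was next, and Rela (65.0) lay beside Relb (63.1), with overlapping libraries, above only Nfkbib (47.4). The libraries of Nfkbie (290.2) and Nfkb2 (289) also overlapped there. At 18 h Nfkb1 was last in WT, with 14.3 tags per kb. In KO it held 24.0, above Relb (22.4), with which it overlapped. Nfkbia was first, with 601 and 654.

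The next question was what remained after 18 h of LPS. Pol II lay below all 1 h libraries at every member except Rela in WT, and above its 0 h level at 9 of 10 genes in WT and 9 of 10 in KO at an adjusted p under 0.05, where 33.2% and 28% of all genes were called higher and 33.3% and 42.1% lower. In WT the exception was Nfkb1 (log2 0.15, adjusted p = 0.159) and in KO it was Rela (-0.01, adjusted p = 0.935). Members' median changes were 0.36 in WT and 0.70 in KO, against 0.00 and -0.18 over all genes. Members called in either direction in WT numbered 5 under quantile normalization, and among these Nfkb1 (-0.20, adjusted p = 0.0136) and Nfkbiz (-0.10, adjusted p = 0.037) were lower. They numbered 5 in a narrower window, within 500 bp of the gene start, and 6 to 8 without the libraries of 1 number. Leaving out any 1 number ended the call of Rela, and leaving out those numbered 1 or 3 ended those of Relb and Nfkbiz. The KO count was 9 without any 1 number. The comparisons at 1 and 18 h use the same 0 h libraries.

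Of the genes with a steep rise, Nfkbib kept the largest share of its 1 h level. Its libraries held 324 to 330.0 normalized tags in WT and 400.4 to 406 in KO at 18 h, which is 5.01-fold and 4.93-fold above 0 h and 67.2% and 63.3% of the 1 h mean. Nfkbia held 2509, 2562 and 2567 in WT and 2851, 2541 and 2920.5 in KO (log2 1.67 and 2.02, adjusted p = 2.77e-13 and 1.35e-14), or 25.6% and 32.9% of 1 h. Nfkbie kept 39.0% and 46.4%, and Relb and Nfkb2 kept 26.9% to 33.0%. Nfkbiz kept the least: 665 to 714 normalized tags in WT and 771 to 792 in KO, 4.99% and 6.04% of the 1 h mean. Nfkb1 and Tnfaip3 kept 11.3% and 13.5% in WT and 18.7% and 20.9% in KO. Rela in WT was the only case in which the 1 h and 18 h libraries overlapped. Its 18 h level was 103% of that at 1 h in WT and 84.4% in KO.

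**Figure D2:**
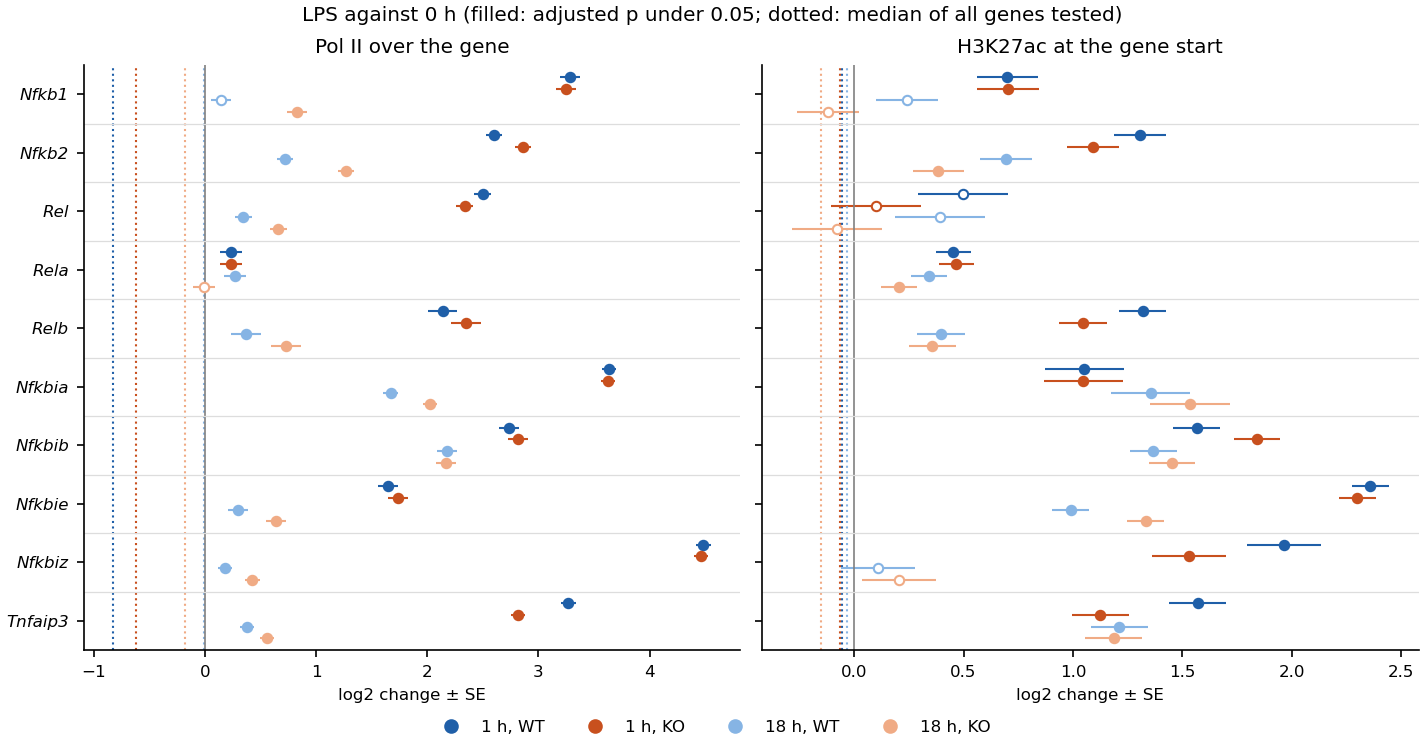
Change with LPS on the log2(normalized tags + 10) scale for each gene in WT and KO at 1 and 18 h, Pol II on the left and H3K27ac on the right, as estimate ± SE over 3 against 3 libraries. Filled points have an adjusted p under 0.05 and dotted lines are the median over all genes tested; the 1 h Pol II points of 9 genes lie between 1.65 and 4.48 in WT, against medians of -0.82 (WT) and -0.62 (KO).

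KO was then set against WT at each time. Before LPS, Tnfaip3 was higher in KO and Nfkbia lower, and the other 8 genes did not pass the test. This is 1 higher and 1 lower of 10, where 4.23% and 2.73% of all genes were called. Tnfaip3 held 2466 to 2546 normalized tags in KO against 1847 to 2279 in WT, with no overlap (log2 0.26, adjusted p = 0.0181). Nfkbia held 632 to 708 in KO against 725 to 848 in WT, again with no overlap (-0.23, adjusted p = 0.0403). Leaving out the libraries numbered 2 or 3 in every group ended both calls (adjusted p = 0.0736 and 0.146 for Tnfaip3, 0.276 and 0.354 for Nfkbia), and leaving out those numbered 1 ended that of Tnfaip3 (adjusted p = 0.0745). In the narrower window at the gene start neither gene was called.

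At 1 h, Nfkbib was called higher in KO, and Nfkbia and Tnfaip3 lower, or 1 higher and 2 lower of 10 where 38.2% and 7.5% of all genes were called. Nfkbib libraries held 620.1 to 663 normalized tags in KO against 476 to 493 in WT (log2 0.38 ± 0.09 SE, adjusted p = 0.0032). Nfkbia was lower in KO by 0.24 (adjusted p = 0.00714), and Tnfaip3 by 0.19 (adjusted p = 0.0234). In neither gene did the genotypes overlap. The median over all genes was itself 0.24 higher in KO at this time: with each library centred on its median gene, 1908 genes were higher and 2563 lower in place of 4617 and 906, and 6 members were called, all lower, with Nfkbib no longer called (0.13). Without the libraries numbered 2 or those numbered 3, neither Nfkbia nor Tnfaip3 was called, and without those numbered 1 Nfkbib was not (0.37, adjusted p = 0.052).

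At 18 h, 5 members were called higher in KO and none lower (Rela, the one member below WT, had an unadjusted p of 0.148), where 7.57% and 13.5% of all genes were called higher and lower. These were Nfkb1, Tnfaip3, Rel, Nfkb2 and Nfkbib, and the median over the members was 0.29 against -0.10 over all genes. Nfkb1 had the largest difference: 2625, 2636 and 2493 normalized tags in KO against 1595, 1539 and 1501 in WT, 67.3% higher in KO (log2 0.74 ± 0.09 SE, adjusted p = 1.15e-05). Every KO library lay above every WT library. In KO 1 or 2 regions covered 99.6% of the Nfkb1 window, and in WT 13 to 20 regions covered 85.7% of it, but per kb covered the levels also differed, at 24.1 ± 0.67 in KO and 16.7 ± 0.68 in WT (SD, n = 3). The Nfkb1 input library at 18 h held 348 normalized tags in WT and 28.0 in KO, and with input subtracted the difference was 1.09 (adjusted p = 2.71e-07). Over the genome that single KO input had 27554 regions with 6.18% of its tags, against 95554 and 19.8% in the WT input. Subtraction at 18 h therefore took more from WT here, and the larger difference is not further support. In the narrower window at the gene start the Nfkb1 difference was 0.16 and not called (adjusted p = 0.532). The call held in the other alternatives that kept its threshold.

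Tnfaip3 held 3660.4, 3763 and 3733 normalized tags in KO and 2702, 2665 and 2836 in WT, or 36.0% more (log2 0.44, adjusted p = 8.82e-05). Rel held 1819.5, 1809.9 and 1768 in KO and 1265, 1355 and 1388 in WT (0.43, adjusted p = 0.000647). The genotypes did not overlap at either gene, and both calls held in all 12 alternative settings that kept the threshold of the call. Nfkb2 held 939, 909 and 878 in KO and 699.9, 697 and 715 in WT (0.36, adjusted p = 0.00145), and Nfkbib 400.4 to 406 in KO and 324 to 330.0 in WT (0.29, adjusted p = 0.0308), again with no overlap. The Nfkb2 call was lost without the libraries numbered 1 (0.34, adjusted p = 0.0517) and in the narrower window (adjusted p = 0.0632). The Nfkbib call was lost without those of any 1 number (adjusted p = 0.184, 0.116 and 0.0833), in the narrower window (adjusted p = 0.668), over the whole merged region (adjusted p = 0.101) and with a common floor on density (adjusted p = 0.0583). Of the genes not called, Nfkbiz (0.17, adjusted p = 0.0644) and Nfkbie (0.14, adjusted p = 0.294) also had no overlap between genotypes. Relb, Nfkbia and Rela overlapped, with differences of 0.28, 0.12 and -0.15. Members lay wholly apart, in either direction, at 7 of 10 genes, where 14% of all genes lay higher and 30.4% lower in KO. Centring each library on its median gene turned the split over all genes from 970 higher and 1729 lower to 1960 and 995, and 9 members were then called, all higher.

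Whether LPS changed Pol II differently in the genotypes was tested by the interaction, in which the change of WT is subtracted from that of KO. At 1 h only Tnfaip3 was called, with a smaller rise in KO (-0.45 ± 0.09 SE, adjusted p = 0.0027), where 14.2% of genes were called higher and 4.19% lower. At 18 h Nfkb1 (0.69 ± 0.13, adjusted p = 0.00133), Nfkb2 (0.55 ± 0.10, adjusted p = 0.00149) and Nfkbia (0.35 ± 0.09, adjusted p = 0.0171) were called, all with a larger LPS change in KO, where 4.85% of genes were called higher and 9.93% lower. Rel (0.32, adjusted p = 0.0619), Nfkbiz (0.25, adjusted p = 0.0774) and Nfkbie (adjusted p = 0.0894) did not pass. Without the libraries numbered 1, 2 or 3 in every group, 1, 0 and 0 members were called at 1 h and 3, 1 and 2 at 18 h. Without those numbered 1 the 18 h calls were Nfkb1, Nfkbia and Tnfaip3 (0.28, adjusted p = 0.0259), and Nfkb2 was not among them. Median centring gave 3 calls at 1 h, where 6.72% of genes were then higher and 13% lower, and 8 at 18 h, where 9.83% were higher and 5.65% lower. In the narrower window none of the 3 was called at 18 h: Nfkb1 was at 0.15 (adjusted p = 0.698), Nfkb2 at -0.0056 (adjusted p = 0.991) and Nfkbia at 0.34 (adjusted p = 0.0881).

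**Figure D3:**
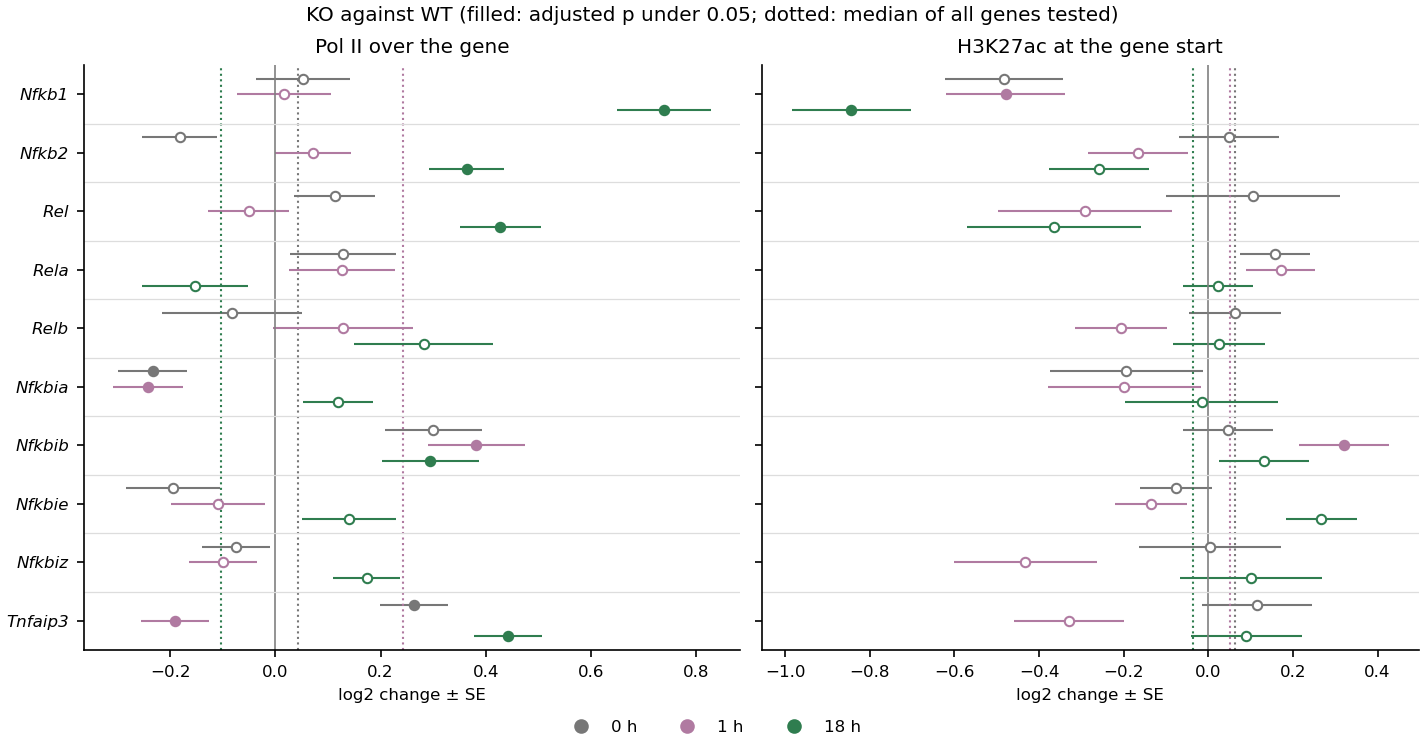
KO against WT at 0, 1 and 18 h for each gene on the log2(normalized tags + 10) scale, Pol II on the left and H3K27ac on the right, as estimate ± SE over 3 against 3 libraries. Filled points have an adjusted p under 0.05 and dotted lines mark the median over all genes; at 18 h the Pol II points of Nfkb1 (0.74), Tnfaip3 (0.44), Rel (0.43), Nfkb2 (0.36) and Nfkbib (0.29) are filled, and Nfkb1 has an H3K27ac point at -0.84.

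H3K27ac at the gene starts rose with LPS as well. At 1 h, 9 of 10 genes were called higher in WT and 9 in KO, where 25.3% and 20.4% of all genes were and 29.3% and 26.5% were lower, and the medians over the members were 1.31 and 1.07 against -0.05 and -0.06 over all genes. Rel was the gene not called in its start window, but 1 merged region of 27789 bp ran from its start into the gene and rose there from 1157 ± 27.7 to 4039.6 ± 193 normalized tags in WT (1.79, adjusted p = 1.74e-10) and from 1289 ± 16.0 to 3404 ± 471 in KO (1.39, adjusted p = 3.86e-09; SD, n = 3). Without the KO libraries that stood apart the same 9 genes were called in KO, and the Rel region changed by 1.28.

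Nfkbie gained the most. Its start window held 1112, 1114 and 1209 normalized tags at 1 h in WT and 1172, 1019 and 944 in KO, against means of 216 and 204 at 0 h. That is 5.31-fold in WT (log2 2.36, adjusted p = 1.14e-11) and 5.13-fold in KO (2.30, adjusted p = 2.87e-11), while its Pol II had gained less than that of most members. Nfkbiz followed in WT with 747, 837 and 817 at 1 h against a mean of 198 (1.97, adjusted p = 1.35e-07). In KO it held 815, 469 and 537 (1.53, adjusted p = 3.03e-06), with the library numbered 1 far above the others, and without it the change was 1.30. Tnfaip3 held 1228, 1258 and 1280.0 in WT (1.57, adjusted p = 9.86e-08) and 1326, 911 and 820.2 in KO (1.13, adjusted p = 5.07e-06, and 0.92 without the first). Rela, which gained least Pol II, gained 0.45 in WT and 0.47 in KO.

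At 18 h, 7 members in WT and 7 in KO were called higher for H3K27ac, where 23.5% and 18.4% of all genes were, and 26.4% and 34.2% were lower. Nfkbia means were 930.2 at 1 h and 1146 at 18 h in WT, where the libraries did not overlap, and 821 and 1163 in KO, where they did. The 18 h level was thus 123% and 142% of that at 1 h, and the same share for Pol II was 25.6% and 32.9%. The KO libraries held 816, 1355 and 1318 at 18 h, and without those numbered 1 the share was 169.8%, with no overlap. Over the whole merged region at the Nfkbia start (chr12:55479894-55499709) the KO change from 0 h was 1.54 at 1 h and 1.53 at 18 h. Without those libraries it was 1.49 and 1.70. KO against WT there was -0.18 at 1 h (adjusted p = 0.208) and 0.04 at 18 h (adjusted p = 0.844). With all libraries, the gain from 1 to 18 h in KO was thus not seen over the region. Tnfaip3 held 77.8% of its 1 h level in its start window in WT and 103% in KO, or 129.6% without the KO libraries numbered 1. Nfkbiz means were 215 in WT and 233 in KO, and neither was called (0.11, adjusted p = 0.613, and 0.21, adjusted p = 0.32). Its KO libraries held 180.2, 259 and 259, and without those numbered 1 the change in KO was called (0.37, adjusted p = 0.00255). In a narrower window, within 1000 bp of the start, both genotypes were called lower instead. The changes there were -0.58 in WT (adjusted p = 0.00854) and -0.44 in KO (adjusted p = 0.0367). With input subtracted the Nfkbiz changes were -0.21 in WT and 0.45 in KO (adjusted p = 0.36 and 0.057). Leaving those libraries out also ended the KO call of Rela (0.14, adjusted p = 0.0587) and called Nfkb1 lower (-0.26, adjusted p = 0.0472), so that 7 members were higher and 1 lower, where 21.7% and 46.5% of all genes were. Without the libraries numbered 2 in every group, or those numbered 3, the KO count was 4.

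**Figure D4:**
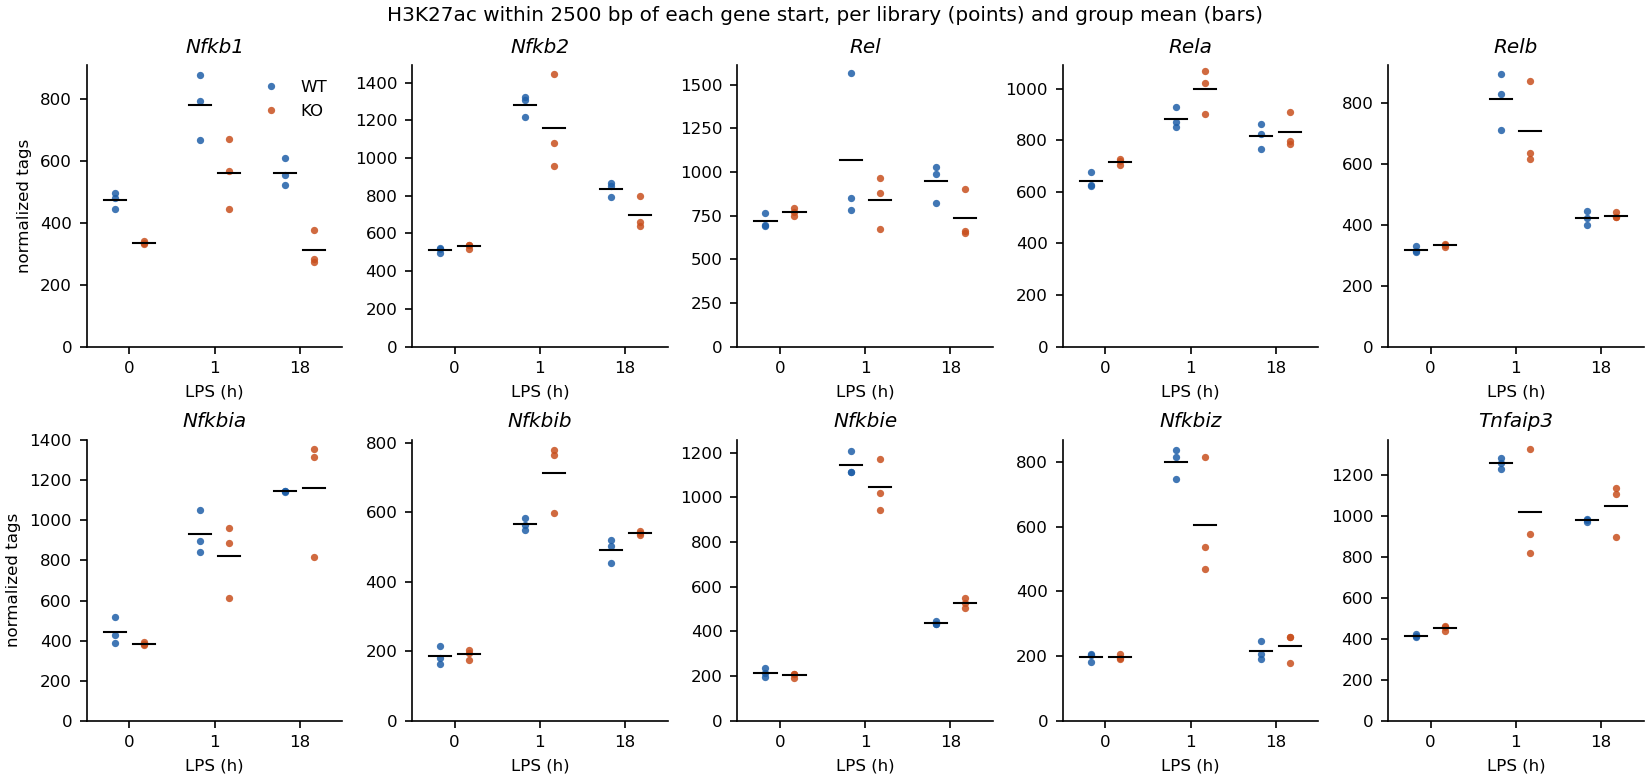
H3K27ac within 2500 bp of each gene start in normalized tags (linear axis from 0), with 1 panel per gene, points for the 3 libraries of a group and bars for group means. Nfkbie and Nfkbiz peak at 1 h and fall by 18 h, whereas Nfkbia in this window at 18 h (means 1146 and 1163) stands above 1 h (930.2 and 821), and the KO library numbered 1 lies apart at Nfkbiz and Tnfaip3 at 1 h.

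Between the genotypes, no member's H3K27ac was called at 0 h (1 had an unadjusted p under 0.05), where 0.465% of genes were called higher and 0.305% lower. At 1 h Nfkbib was higher in KO (599, 765 and 779 normalized tags against 565, 551 and 583; log2 0.32, adjusted p = 0.047) and Nfkb1 lower (669.9, 567 and 444 against 793, 879 and 667; -0.48, adjusted p = 0.0302), where 11.1% and 7.41% of genes were called. Nfkbib did not overlap and Nfkb1 did, by 1 library of each genotype. Both calls were lost without the libraries numbered 2 (adjusted p = 0.527 for Nfkbib and 0.479 for Nfkb1) or 3 (0.44 and 0.272) and in the narrower window, and that of Nfkbib also with a pseudocount of 1, median centring (0.23, adjusted p = 0.109), input subtracted or a replicate block (adjusted p = 0.0691). At 18 h only Nfkb1 was called, lower in KO (376, 284 and 273 against 554, 522 and 610.5; -0.84, adjusted p = 0.00289), where 0.951% of genes were higher and 2.29% lower. This call was lost without the libraries numbered 2 (adjusted p = 0.173) or 3 (-0.70, adjusted p = 0.0839). The interaction called 0 members at either time (1 at each at an unadjusted p under 0.05), where 0.0987% of genes were called higher and 0.444% lower at 1 h, and 0.166% and 0.464% at 18 h.

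With both KO libraries numbered 1 left out, the H3K27ac calls between genotypes rose over all genes as well as at the members. At 0 h Nfkb1 was then called, lower in KO (-0.48, adjusted p = 0.00723), where 7.95% of genes were higher and 2.48% lower. At 1 h 2 members were higher and 6 lower, where 35.5% and 24.3% of genes were, and at 18 h 2 were higher and 2 lower, where 4.36% and 14.7% were. The interaction then called 1 member higher and 4 lower at 1 h (24.9% and 22.9% of genes), and 1 higher and 2 lower at 18 h (2.18% and 12.4%). At 1 h KO was then higher at Nfkbib (0.44, adjusted p = 0.000838) and Rela (0.24, adjusted p = 0.00421). It was lower at 6 genes: Nfkbiz (-0.66, adjusted p = 2.69e-05), Nfkb1 (-0.62, adjusted p = 0.000221), Tnfaip3 (-0.53, adjusted p = 1.07e-06), Relb (-0.36, adjusted p = 0.000866), Nfkb2 (-0.33, adjusted p = 0.000415) and Nfkbie (-0.22, adjusted p = 0.0158). At 18 h it was lower at Nfkb1 (-0.98) and Nfkb2 (-0.36, adjusted p = 0.0017) and higher at Nfkbie (0.30, adjusted p = 0.00979) and Tnfaip3 (0.20, adjusted p = 0.0199). Why those 2 libraries stand apart was not tested.

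The Nfkb1 value needs its locus. Tags are spread evenly over a called region when it is shared with a window, and the region at the Nfkb1 start (chr3:135680800-135693536, 12736 bp when merged) was stitched longer in KO. Over that whole merged region H3K27ac was 731 ± 32.3 normalized tags in WT and 868 ± 60.7 in KO at 18 h, a difference of 0.24 (adjusted p = 0.198) and opposite in sign to the start window. At 1 h it was 1859 ± 82.5 in WT and 1489 ± 353 in KO (-0.34, adjusted p = 0.036; SD, n = 3). Without the KO libraries that stood apart these differences were 0.30 (adjusted p = 0.000654) and -0.53 (adjusted p = 9.14e-07), so the 18 h value was then called higher in KO over the region and lower in the start window.

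Inside Nfkb1, regions gained and lost the mark at different distances. A region of 13732 bp (chr3:135662207-135675939), which holds another annotated start 23748 bp into the gene, rose from 2.94 ± 5.10 normalized tags at 0 h to 694 ± 5.80 at 1 h in WT and from 2.36 ± 4.09 to 506 ± 123 in KO. At 18 h it held 188 ± 19.2 in WT and 393 ± 66.7 in KO, which did not overlap (log2 1.01, adjusted p = 0.0182), in the same direction as Pol II over the gene. A region of 7506 bp farther in (chr3:135634734-135642240) was listed at 0 in all libraries at 0 h, held 268 ± 29.3 and 156 ± 33.1 at 1 h, and was higher in KO at 18 h (29.8 ± 14.2 against 8.73 ± 7.71; 1.13, adjusted p = 0.0279). Without the KO libraries that stood apart, the 18 h differences of these regions were 1.13 (adjusted p = 0.0047) and 1.38 (adjusted p = 0.00297). Neither region was called without the libraries numbered 2 in every group (adjusted p = 0.18 and 0.376) or those numbered 3 (adjusted p = 0.134 and 0.133), and with a pseudocount of 1 they had an adjusted p of 0.452 and 0.0602. Toward the 3′ end, a region of 8264 bp fell between 0 and 18 h from 425 ± 16.7 to 192 ± 6.84 in WT and from 477 ± 6.58 to 195 ± 13.1 in KO (-1.10 and -1.25). A region of 4736 bp (chr3:135593891-135598627) fell from 136 ± 14.9 to 14.5 ± 7.04 and from 159 ± 18.7 to 19.8 ± 7.00 (-2.62 and -2.53). For both regions all 18 h libraries lay below all 0 h libraries.

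**Figure D5:**
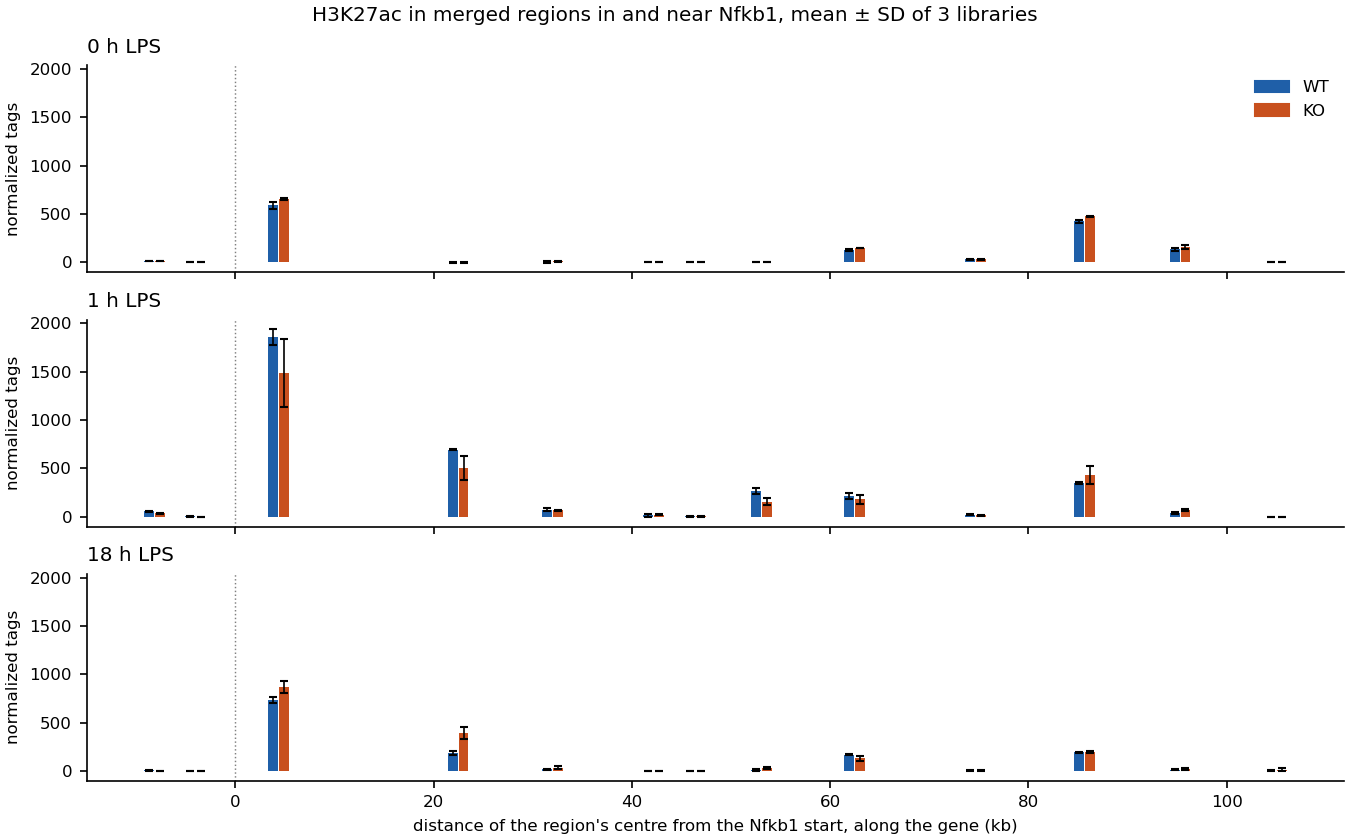
H3K27ac in the merged regions at and within 20 kb of Nfkb1 against the distance of the region's centre from the gene start along the gene, in kb, with rows for 0, 1 and 18 h and bars for WT and KO (mean ± SD, n = 3, normalized tags). The region that begins 15608 bp into the gene is near 0 at 0 h, at 694 (WT) and 506 (KO) at 1 h, and at 188 (WT) and 393 (KO) at 18 h, while the region 81563 bp into the gene falls to 192 (WT) and 195 (KO).

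Elsewhere, 44 Pol II and 48 H3K27ac merged regions lay within 20 kb of a member but not at its start, and a call there also needed an absolute log2 change over 1. In WT 5 of 24 Pol II regions tested were called higher and 5 lower, and in KO 6 of 25 and 4 (all regions: 9.35% and 40.5% in WT, 11.8% and 35.4% in KO). For H3K27ac these were 12 of 31 and 3 in WT, and 9 of 27 and 2 in KO (all regions: 14.9% and 25.9%, 10.6% and 16.7%). Without the KO libraries that stood apart, the lower KO calls were lost (-0.98 in Nfkb1 and -0.56 near Nfkbib). The higher call downstream of Nfkbia was lost too (0.96), where 12.5% of all regions were then higher and 17.1% lower. After 18 h, 4 of 22 Pol II regions were higher and 1 lower in WT, and 3 and 2 of 22 in KO (all regions: 13.1% and 18%, 15% and 22%). H3K27ac was then higher at 4 and lower at 3 of 27 regions in WT, and at 4 and 5 of 31 in KO (all regions: 13.5% and 25.5%, 13.7% and 26.4%). Without the KO libraries that stood apart, the higher KO call upstream of Rela (0.69) and the lower one at the 3′ end of Nfkbiz (-0.98) were lost. Regions upstream of Relb (1.37) and of Nfkbiz (1.13) were then called higher and 1 downstream of Rel (-1.14) lower. Of all regions, 14.6% were then higher and 29% lower in KO.

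Between genotypes few of these regions differed. At 0 and at 1 h, limma called 0 of 19 Pol II regions, and 0 of 23 and 0 of 30 H3K27ac regions, where at most 1 had an unadjusted p under 0.05 with that change. Over all regions, Pol II was higher at 1.14% and lower at 1.13% at 0 h, and at 6.6% and 1.98% at 1 h. H3K27ac was higher at 1.26% and lower at 0.59% at 0 h, and at 9.64% and 4.43% at 1 h. At 18 h, 1 of 21 Pol II regions was lower in KO, and 2 of 31 H3K27ac regions, both in Nfkb1 and given above, were higher (all regions: 3.68% higher and 2.49% lower for Pol II, 2.62% and 1.12% for H3K27ac). The interaction called 0 of 26 Pol II regions at 1 h and 2 of 24 at 18 h, both lower (all regions: 3.58% and 1.32% at 1 h, 2.92% and 2.36% at 18 h). It called 0 of 31 and 0 of 32 H3K27ac regions (0 and 2 at an unadjusted p under 0.05 with that change), where 1.75% and 1.36% of all regions were called at 1 h and 0.839% and 0.757% at 18 h. Without the KO libraries that stood apart, 3 H3K27ac regions were called at 1 h, 1 higher near Nfkbib and 2 lower near Tnfaip3 and Nfkb2, where 19.2% and 9.98% of all regions were. At 18 h 3 were then called, all higher (3.61% of all regions), with 1 near Relb added to those in Nfkb1. The interaction then called 2 at 1 h and 3 at 18 h (15.2% of all regions higher and 9.69% lower, and 2.17% and 1.49%).

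Upstream of Tnfaip3, a Pol II region of 6155 bp (chr10:19028629-19034784), 12972 bp from its start and over no protein-coding gene, was listed at 0 in all libraries at 0 and 18 h. At 1 h it held 191 ± 12.9 normalized tags in WT and 189.7 ± 15.2 in KO. No library of another time had a region there, and the genotypes overlapped. Downstream of Nfkbia, a Pol II region of 7024 bp over no protein-coding gene (chr12:55462949-55469973) rose from 250.5 ± 22.5 to 1154 ± 48.9 in WT and from 242 ± 8.54 to 1251 ± 44.8 in KO. H3K27ac in a region of 20955 bp there (chr12:55456617-55477572) rose from 1004 ± 7.74 to 2326 ± 63.4 and from 984 ± 16.0 to 1990.3 ± 125.

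Nfkbiz has another annotated start 16761 bp into the gene. H3K27ac within 2500 bp of it was 309.6 ± 11, 689.9 ± 21.5 and 484 ± 36.3 normalized tags at 0, 1 and 18 h in WT and 309 ± 4.35, 725 ± 50.6 and 477 ± 48.2 in KO. The merged region there changed by 0.75 at 18 h in WT (log2, adjusted p = 1.22e-06) and by 0.73 in KO (adjusted p = 1.44e-06), and the merged region at the first start by 0.37 and 0.45 (adjusted p = 0.0339 and 0.0119). An H3K27ac region of 6168 bp that begins 8479 bp upstream of Nfkbiz (chr16:55847378-55853546, over Nxpe3) was listed at 0 in all 0 h libraries and held 109 ± 3.44 in WT and 90.3 ± 13.7 in KO at 1 h. At the Nfkbie start, the merged region of 6785 bp held 497 ± 19.3 in WT and 645 ± 35.1 in KO at 18 h, with no overlap (0.37, adjusted p = 0.00798, and 0.41 without the KO library that stood apart).

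Other genes of the pathway were followed in 5 lists of 40 genes. At 1 h 26 were called higher for Pol II and 14 lower in WT, and 26 and 10 in KO, where 18.6% and 68.4% of all genes were in WT and 20.6% and 62.2% in KO, and their median change was 1.46 and 1.41. All 8 early targets (Il1b, Cxcl1, Cxcl2, Ccl3, Ccl4, Tnf, Icam1 and Ptgs2) rose in both genotypes, with a median of 3.85 in WT and 3.89 in KO. Of 6 IkB kinases and the related NIK, 3 rose and 3 fell in WT. Ikbkb, the kinase subunit that drives the classical pathway, rose by 2.17, whereas Map3k14, which encodes NIK of the alternative pathway, fell by 2.74 and Ikbkg, the regulatory subunit, fell by 1.36. Of 13 genes for TRAF, TAK1 and cIAP proteins, 8 rose in WT, led by Traf1 (5.49), and 5 fell. Of 10 genes for A20 partners, deubiquitinases and linear ubiquitin, 5 rose, led by Tnip1 (3.24), and 5 fell. Of 3 further IkB genes, Bcl3 (1.67) and Nfkbil1 (1.59) rose and Nfkbid fell by 0.29.

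Early targets were lower in KO at 0 and 1 h and higher at 18 h, as far as they were called. In KO 5 of 8 were lower at 0 h (Cxcl1, Cxcl2, Ccl3, Il1b and Tnf) and 4 of 8 at 1 h (Ptgs2, Icam1, Ccl3 and Tnf), with none higher, where 2.73% and 7.5% of all genes were lower. At 18 h 4 of 7 tested were higher and none lower, where 7.57% of all genes were higher: Ptgs2 (log2 1.15), Il1b (0.76), Cxcl2 (0.35) and Tnf (0.28). The interaction at 18 h was called for 6 of the early targets, all higher, where 4.85% of genes were. Over the 40 genes, KO was higher at 3 and lower at 7 before LPS, higher at 10 and lower at 6 after 1 h, and higher at 8 and lower at 5 of 39 tested after 18 h. Over all genes these shares were 4.23% and 2.73%, 38.2% and 7.5%, and 7.57% and 13.5%. H3K27ac at their starts rose in 23 and fell in 4 at 1 h in WT, where 25.3% and 29.3% of all genes did.

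For each member the gene with the most similar Pol II pattern over the 18 libraries is given by Pearson's r of the log2 values, without a test, since the libraries share their groups and all protein-coding genes tested were searched. These were Atl1 for Nfkb1 (0.996), Akna for Nfkb2 (0.995), Aebp2 for Rel (0.998), St3gal1 for Relb (0.992), Ehd1 for Nfkbia (0.999), Bcl2a1a for Nfkbib (0.992), Il1b for Nfkbie, Gas7 for Nfkbiz (0.999) and Abtb2 for Tnfaip3. For Rela the highest r was 0.779, with Tns3.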

How the data were processed

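The deposited files are HOMER region lists, 1 per library. Per the labels, the article and the file headers, the authors used Skewer for trimming and HISAT2 2.1.0 for alignment to mm10, removed duplicates, and called broad regions in each library without input: windows of 500 bp past a Poisson p of 0.001, stitched when under 1000 bp apart. The deposited signal is the Normalized Tag Count, or tags per 10 M. A region absent from a list was set to 0, which means that none was called. Whole tags were not recovered, so no count test was run. Depth sets the calling threshold, and its effect on the precision of the values was not modelled. A longer stitched region adds tags, so values move with the length called.

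Gene windows used GENCODE vM21 (GRCm38), leaving out 54 genes with duplicate symbols. Regions were shared by overlap. limma 3.58.1 (trend) in R 4.3.3 was run on log2(normalized tags + 10), with 6 group means over 18 libraries per antibody. Fold changes are ratios of group means. log2 changes understate those of low genes. Genes with a region in 2 or more libraries of a compared group were tested, with Benjamini-Hochberg adjustment over all of them, and called at an adjusted p under 0.05. Merged regions within 20 kb of a member also needed an absolute log2 change over 1. On simulated data with 200 genes changed by a log2 change of 1 (1 h against 0 h, WT), 95% were called for Pol II (14 false of 10648 genes) and 87% for H3K27ac (11 false of 10437). The simulation had no shift over all genes and no library standing apart, and used only genes with signal in every library. Its rates therefore do not carry over to the calls reported here.

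The members and lists were chosen with earlier results of these data known. All members were named, other pathway genes only where called, the most similar gene by r over 18 libraries, and the regions within 20 kb with the largest changes. Motifs were searched in RefSeq promoters. Pandas 2.3.3, numpy 2.4.6, matplotlib 3.10.9 and the R package data.table (1.17.8) were used. Alternatives covered the pseudocount, filter, scaling, window, input, calling floor, left-out libraries and pairing.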

Additional observations from a re-analysis of the deposited data

Results flagged for a closer look

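4 values stood out because the LPS change of Pol II differed between the genotypes by the test of the interaction. At 1 h Tnfaip3 rose less in KO, by -0.45 (log2; limma adjusted p = 0.0027). This call was lost without the libraries numbered 2 (-0.50, adjusted p = 0.052) or 3 (-0.45, adjusted p = 0.0629). At 18 h Nfkb1 differed by 0.69 (adjusted p = 0.00133), which became 0.55 (adjusted p = 0.088) without the libraries numbered 2 and 0.15 (adjusted p = 0.698) in a narrower window at the gene start. Nfkb2 differed by 0.55 (adjusted p = 0.00149), which became 0.52 (adjusted p = 0.0536) without those numbered 1 and -0.0056 (adjusted p = 0.991) in the narrower window. Nfkbia differed by 0.35 (adjusted p = 0.0171), which became 0.38 (adjusted p = 0.0811) and 0.26 (adjusted p = 0.252) without those numbered 2 or 3, and 0.34 (adjusted p = 0.0881) in the narrower window. Over the whole merged region at the gene start, an alternative chosen after seeing the data, the Nfkbia difference was 0.52 (adjusted p = 0.000872).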

How the results depend on the processing

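Direction and call of the 1 h rise of Pol II held in all 12 window alternatives and both genotypes for 9 members, Rela excepted. Counts of called members or nearby regions that moved by over 1.5 times are as follows, and the cause was not tested. For Pol II, the 18 h change in WT gave 5 members under quantile normalization, 5 with a narrower window at the start and 2 when an absolute log2 change over 1 was also required (3 in KO). KO against WT gave 0 at 0 h in the narrower window and 1 with a replicate block. At 1 h it gave 6 with median centring and 1 each with quantile normalization and the narrower window. At 18 h it gave 9 with centring and 2 in the narrower window. The interaction at 1 h gave 3 with centring, 2 with input subtracted and 2 over the whole merged region. At 18 h it gave 8, 8 and 5 in these settings, 7 with quantile normalization and 0 in the narrower window. The KO input at 18 h held fewer regions than the WT input, which bears on the counts with input subtracted. For every KO against WT comparison and interaction of Pol II that had a call, requiring an absolute log2 change over 1 left 0. For H3K27ac that requirement left 3 (WT) and 4 (KO) at 18 h, and 0 for KO against WT at 1 and 18 h. KO against WT at 0 h gave 1 with quantile normalization and 1 without the KO libraries numbered 1 at 1 and 18 h. At 1 h it gave 1 each with a pseudocount of 1, centring, input subtracted or a replicate block, 0 in the narrower window and 8 without those KO libraries. At 18 h it gave 2 with input subtracted and 4 without those KO libraries. Without them the interaction gave 5 at 1 h and 3 at 18 h, and over the whole merged region it gave 1 at 18 h. Among nearby regions, a pseudocount of 1 gave 10 Pol II regions for 18 h in KO, and for KO against WT 1 at 0 h and 2 at 18 h. It gave 2 H3K27ac regions at 1 h and 1 at 18 h, and leaving out the KO libraries gave 3 at 1 h, 2 for the interaction at 1 h and 3 at 18 h.

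Members whose sign turned, with a call in at least 1 of the settings compared, were, for Pol II under quantile normalization at 18 h in WT, Nfkb1 (-0.20), Rela (-0.024), Nfkbie (-0.022) and Nfkbiz (-0.10). In the narrower window they were Nfkb1 (-0.092) and Relb (-0.11) at 18 h in KO, Nfkbiz at 18 h in WT (-0.15) and Nfkb2 in the 18 h interaction (-0.0056). With centring it was Nfkb1 in KO against WT at 1 h (-0.23), and with input subtracted Nfkbib in the 18 h interaction (0.46) and Nfkbiz at 18 h in WT (-0.0014). Over the whole merged region it was Rela at 1 h (-0.26 in WT, -0.33 in KO). For H3K27ac they were, over the whole merged region, Nfkb1 at 18 h in KO (0.39) and in KO against WT at 18 h (0.24) and Rel at 18 h in KO (0.51). In the narrower window they were Rela (-0.092 and -0.16) and Nfkbiz (-0.58 and -0.44) at 18 h in WT and KO. The narrower window reads a stitched region's mean density, so it does not resolve a gene's start from its body.

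Leaving out the libraries of 1 number, Pol II members called ranged from 9 to 10 at 1 h in each genotype, from 6 to 8 at 18 h in WT and were 9 in KO, with 0 to 1, 1 to 2 and 3 to 4 for KO against WT at 0, 1 and 18 h and 0 to 1 and 1 to 3 for the interactions. H3K27ac members ranged from 6 to 7 at 18 h in WT, 4 to 7 in KO, 0 to 8 and 0 to 3 for KO against WT at 1 and 18 h, and 0 to 4 and 0 to 1 for the interactions. Pol II regions ranged from 3 to 7 and 2 to 5 at 18 h in WT and KO, 0 to 1 and 1 to 3 for KO against WT at 1 and 18 h, and 0 to 1 and 1 to 2 for the interactions. H3K27ac regions ranged from 0 to 4 and 0 to 3 for KO against WT at 1 and 18 h, and 0 to 4 and 0 to 1 for the interactions. Deviations of libraries with the same number from their group means had r from -0.07 to 0.11 for Pol II and from -0.43 to 0.08 for H3K27ac. With different numbers r ran from -0.14 to 0.13 and from -0.33 to 0.41. These values show no pairing by number, but cannot tell whether libraries of 1 number share an animal or culture. Region-level alternatives and the whole merged region were chosen after seeing the data. The calling threshold is lower in the deeper KO H3K27ac libraries. Setting a common floor on density (10.76 tags per kb for Pol II and 14.51 for H3K27ac) lost 1 member call in all comparisons of the gene windows. It was that of Nfkbib in KO against WT for Pol II at 18 h. The floor does not shorten stitched regions, so the effect of depth on H3K27ac through their length was not tested.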
